A study of Mus musculus with 24 samples.

Results

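The genes described here are 9 genes of bile acid synthesis and sterol export in mouse liver, found by their symbols among the 24421 entries of a gene count table. They are the sterol exporters Abcg5 and Abcg8, the bile acid synthesis enzymes Cyp7a1, Cyp8b1 and Cyp27a1, the bile acid carriers Abcb11 and Slc10a1, and the nuclear receptors Nr1h4 and Nr0b2. All 9 symbols were in the table, and 8 passed the expression filter that left 4198 genes for testing. Nr0b2, with 92 counts over all libraries, did not pass.

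Liver RNA came from male C57Bl/6J mice given a control diet (CD, 13% fat) or a Western diet (WD, 42% fat). Each diet was combined with inhaled vinyl chloride (VC), an industrial chemical that the liver metabolises, at 0.85 ± 0.1 ppm (daily sessions of 6 hours, 5 per week, through 12 weeks), or with air. Groups named w12 (w12_CD, w12_CD+VC, w12_WD, w12_WD+VC) were taken when the 12 weeks ended. Groups named m12 (m12_CD, m12_CD+VC, m12_WD, m12_WD+VC) were taken after 9 more months of housing without exposure, the WD groups still on that diet as far as the labels say. All mice were fasted for 4 hours at the end. Each of the 8 groups had 3 libraries. The labels give neither the age of the mice nor a statement that each library is 1 animal, so every p-value here reflects only how far these samples spread, which may be technical.

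Bile acids are made from cholesterol in hepatocytes and are the main route by which the body disposes of it. Cyp7a1 starts the classical pathway, Cyp8b1 adds the hydroxyl group that yields cholic acid, and Cyp27a1 oxidises the side chain and also opens the alternative pathway. Abcb11 (the bile salt export pump) moves bile acids into bile and Slc10a1 (NTCP) takes them back up from blood, while Abcg5 and Abcg8 form 1 heterodimer that moves cholesterol and plant sterols into bile. Nr1h4 (FXR) senses bile acids, and its target Nr0b2 (SHP) is known for repressing Cyp7a1 and Cyp8b1.

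The upstream sequences shown are the stretch between Abcg5 and Abcg8 and the one before Cyp8b1, the 3 genes with a call in what follows, and the one before Abcb11, chosen because it holds an FXR-type repeat. They are from RefSeq windows of GRCm38.p6, read 5′ to 3′, and capitals mark the letters searched for on both strands. Abcg5 and Abcg8 run in opposite directions from starts that are 109 bases apart at chr17:84683012-84683120, printed on the plus strand. Its capitals are TTATCT, the reverse complement of AGATAA, the core read by GATA factors, with 2 matches.
Abcg5-Abcg8 intergenic: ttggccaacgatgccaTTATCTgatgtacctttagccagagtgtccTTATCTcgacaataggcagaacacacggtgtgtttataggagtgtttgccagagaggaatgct
The 250 bases before Cyp8b1 lie at chr9:121916306-121916555 on the minus strand. Its capitals hold CAAAGNCCA, an HNF4-type element, and CAAGGNCA, an LRH-1-type element, which overlap each other.
Cyp8b1 upstream: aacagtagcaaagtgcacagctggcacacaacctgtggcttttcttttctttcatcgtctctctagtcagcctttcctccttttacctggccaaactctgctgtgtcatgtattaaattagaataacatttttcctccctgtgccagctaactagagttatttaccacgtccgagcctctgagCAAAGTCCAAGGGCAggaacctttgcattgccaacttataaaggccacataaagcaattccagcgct
The 250 bases before Abcb11 lie at chr2:69342617-69342866 on the minus strand. Its capitals are an FXR-type inverted repeat: GGNCA, then any 1 base, then its reverse complement TGNCC.
Abcb11 upstream: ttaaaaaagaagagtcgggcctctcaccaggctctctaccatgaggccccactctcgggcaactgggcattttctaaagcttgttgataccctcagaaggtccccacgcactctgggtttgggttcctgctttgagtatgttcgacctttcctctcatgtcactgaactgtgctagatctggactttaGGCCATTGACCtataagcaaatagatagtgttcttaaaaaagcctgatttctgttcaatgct
Of 32851 RefSeq windows of 300 bases around gene starts, 11.18% held AGATAA, 6.71% held CAAGGNCA, 1.98% held CAAAGNCCA and 0.68% held the FXR-type repeat. These letters were chosen with the windows in view. Windows were present for 8 of the 9 genes. Among the other genes, CAAGGNCA matched once before Nr0b2, CAAAGNCCA once in 1 of the windows of Slc10a1, and AGATAA once before Nr1h4. A match is a run of letters and was not tested as a binding site.

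The libraries were shallow, and this sets what can be seen. The totals of 23 libraries lay between 126160 and 962493 counts (median of all 24, 379638), and the third w12_WD library had 607. Levels below are CPM (counts scaled to a common library size) on TMM-scaled totals and are given over the 23 larger libraries, so w12_WD has n = 2 for levels, while all 24 entered the tests. A count of 0 in those 23 libraries allows a level of up to 3.12 to 23.8 CPM, for counting error only. All 12 hepatocyte marker genes were detected and tested, and their summed level was 6590 to 40500 CPM over the 23 libraries. Krt7, Cftr and Cldn4, markers of bile duct cells, were at 0 counts in at least 6 of the 8 groups.

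Per kilobase of exon, the entry of Abcg8 held by far the most counts of the 9, at 299 ± 117 CPM per kb (SD over 23 libraries). Slc10a1 followed at 42.6 ± 20.1, Cyp8b1 at 35.4 ± 13.1 and Cyp27a1 at 32.0 ± 12.5, and these 3 lay within their spread of each other. Nr1h4 was at 12.7 ± 5.93, Abcb11 at 10.3 ± 7.74, Nr0b2 at 10.2 ± 7.38, Cyp7a1 at 9.83 ± 5.1 and Abcg5 at 7.19 ± 5.79 CPM per kb, which did not separate either. Of the 2 subunits of the sterol transporter, the entry of Abcg8 was thus the highest. That of Abcg5 lay among the lowest genes that did not separate. Exons of both overlap a gene on the other strand, and entries without such an overlap held 14.9% to 26.3% of counts by group mean. Whether strand was used in counting is unknown, so the gap between the 2 entries cannot be read as one between their transcripts.

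**Figure D1:**
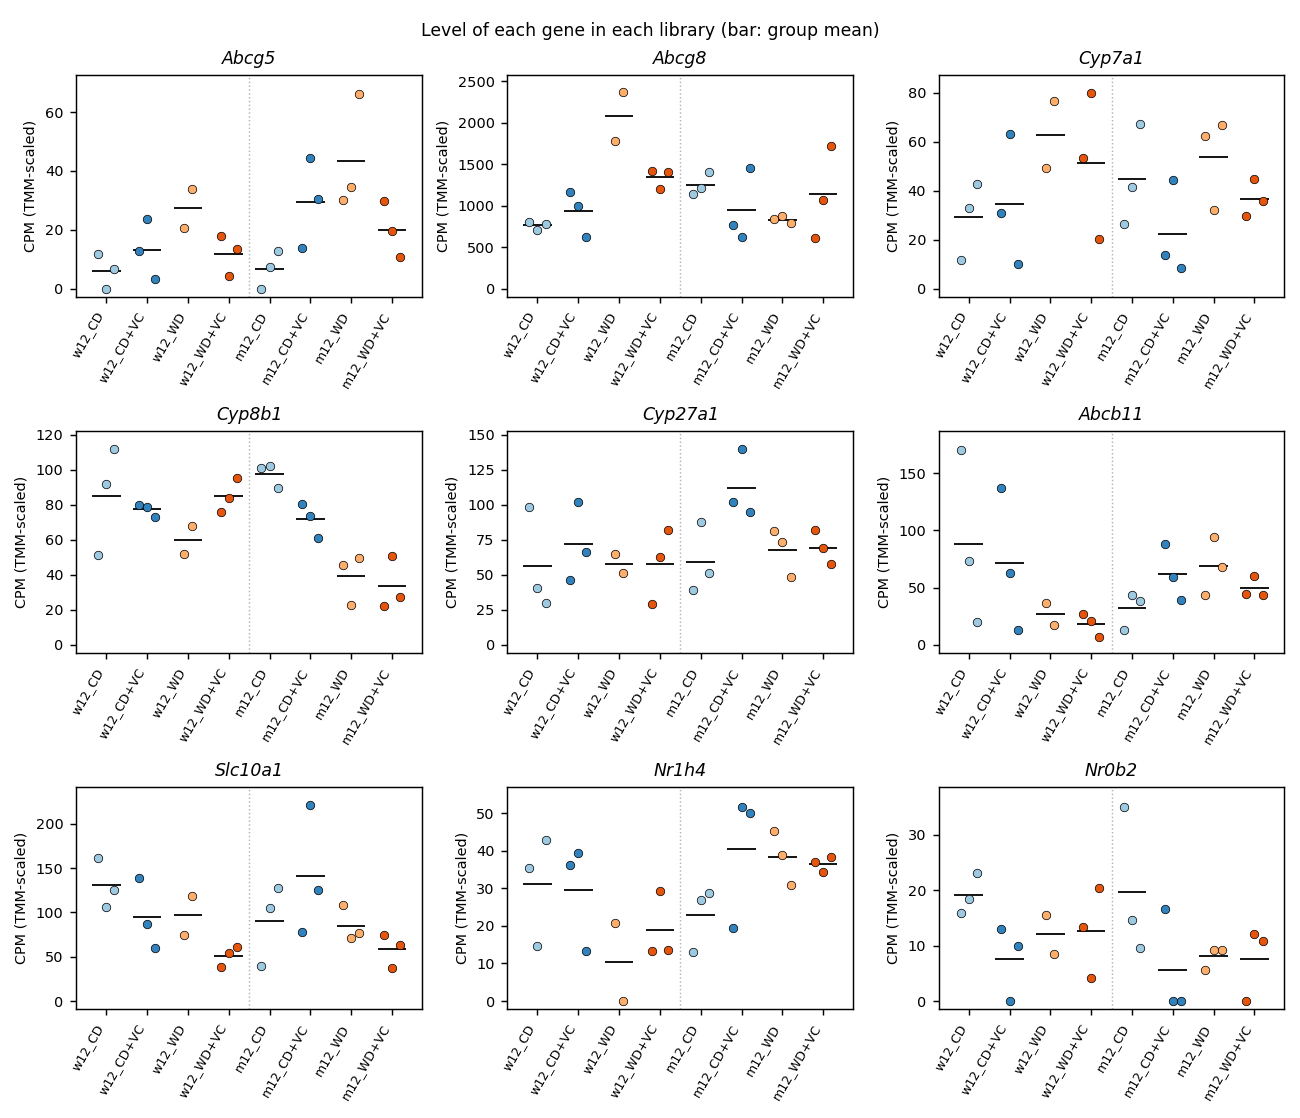
Level (CPM on TMM-scaled totals, linear axis from 0) of each of the 9 genes in each of the 23 libraries with over 100000 counts. Points are libraries, bars are group means, and the dotted line parts the 12-week from the 12-month groups. Abcg5 is highest in m12_WD, Abcg8 in w12_WD, and Cyp8b1 is low in both 12-month WD groups.

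The 16 comparisons tested were diet within each exposure and time, VC within each diet and time, time within each of the 4 conditions, and 4 interactions. A gene was called where its edgeR quasi-likelihood test with Benjamini-Hochberg adjustment over all 4198 genes gave an adjusted p under 0.05. Of 128 tests of the 8 genes, 5 were calls, in 4 comparisons and on 3 genes: Abcg5, Cyp8b1 and Abcg8. These were diet without VC at 12 months, diet by VC at 12 months, time on WD, and diet by time without VC. Of all genes tested, 24.5%, 9.81%, 14.6% and 6.67% were called in them, in that order. In the comparison of diets without VC at 12 months, 1 of the 8 rose and 1 fell, while 24.5% of all genes tested were called, 13.4% as higher and 11.1% as lower. That split depends on the scaling: 54.7% of the calls were higher with TMM and 78.3% with RLE size factors. The same shares were 78.5% and 98.2% for VC on CD and 39.5% and 28.3% for diet with VC at 12 months, 34.0% and 7.5% for the diet by VC interaction at 12 months, 53.0% and 67.4% for time on WD, and 51.1% and 73.9% for diet by time. For diet without VC at 12 months the median log2 fold change of the 8 was 0.20, against 0.11 over all genes.

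Abcg5 rose with WD at 12 months without VC. Its counts were 0, 3 and 4 in m12_CD and 16, 15 and 64 in m12_WD. In CPM these were 0, 7.31 and 12.8 against 30.2, 34.4 and 66.0. Every WD library was above every CD library, and the third WD library was the highest of all 23. The means were 6.7 ± 6.41 and 43.5 ± 19.5 CPM (SD, n = 3), a log2 fold change of 2.56 (SE 0.72, adjusted p = 0.00949). The call rests on few counts: the adjusted p was 0.0561 without the first m12_CD library and 0.0506 without the third m12_WD library.

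With VC, the diet difference of Abcg5 at 12 months was not seen. The m12_CD+VC libraries held 13.8, 44.3 and 30.6 CPM, and the m12_WD+VC libraries 29.7, 19.5 and 10.9 CPM, so the groups overlapped. The log2 fold change for diet was -0.56 with an approximate 95% interval of -1.93 to 0.81 (adjusted p = 0.773). The difference between the diet effects with and without VC was -3.12 on the log2 scale (SE 1.01, adjusted p = 0.0452), and 9.81% of all genes were called in that interaction. It lost the call without any 1 of 10 libraries: m12_CD 1 or 2, m12_CD+VC 2 or 3, or any library of either WD group, with adjusted p up to 0.138. The 2 simple effects of VC behind it were 1.88 on CD (SE 0.78, adjusted p = 0.123) and -1.24 on WD (SE 0.64, adjusted p = 0.469). Neither passed. In both cases the groups did not overlap, but only by a narrow margin. On CD the nearest libraries were at 12.8 CPM without VC and 13.8 CPM with VC (4 and 5 counts). On WD they were at 30.2 CPM without VC and 29.7 CPM with VC (16 and 4 counts).

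At 12 weeks Abcg5 was measured on still fewer counts. Its levels were 11.8, 0 and 6.6 CPM in w12_CD and 20.7 and 34.0 CPM in w12_WD, and the diet change of 1.99 (SE 0.92) had an adjusted p of 0.853. In order of mean level the 8 groups ran from w12_CD (6.15 ± 5.94 CPM) and m12_CD (6.7 ± 6.41) through w12_WD+VC (11.9 ± 6.99), w12_CD+VC (13.3 ± 10.2), m12_WD+VC (20.0 ± 9.39), w12_WD (27.4 ± 9.38) and m12_CD+VC (29.6 ± 15.3) to m12_WD (43.5 ± 19.5). Each neighbouring pair in that order lay within its SDs.

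Abcg8, the partner subunit, did not follow Abcg5 over the diets at 12 months. It was at 1140, 1210 and 1410 CPM in m12_CD and at 834, 874 and 790 CPM in m12_WD. The WD libraries were the lower ones with no overlap, but the change of -0.59 (SE 0.31) had an adjusted p of 0.159. At 12 weeks its order was the opposite, with 802, 709 and 782 CPM in w12_CD and 1780 and 2370 CPM in w12_WD. That diet change was 1.35 (SE 0.33, unadjusted p = 0.000285), with an adjusted p of 0.242 in a comparison where 0.0238% of all genes were called.

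Abcg8 fell with time on WD. From w12_WD at 2080 ± 416 CPM (n = 2) to m12_WD at 832 ± 42.1 CPM (n = 3), the log2 fold change was -1.23 (SE 0.33, adjusted p = 0.0116), and 14.6% of all genes were called there. On CD the same interval gave 0.71 (SE 0.31, adjusted p = 0.25), from 764 ± 49.0 to 1250 ± 136 CPM. The difference between the diet effects at the 2 times was -1.94 (SE 0.46, adjusted p = 0.0108), where 6.67% of all genes were called. Both calls were lost without the second w12_WD library, with adjusted p of 0.16 and 0.101. Without the third, the library of 607 counts, they were -1.4 (adjusted p = 0.00411) and -2.13 (adjusted p = 0.00519). In the groups with VC, Abcg8 was at 1340 ± 122 CPM in w12_WD+VC and at 1140 ± 556 CPM in m12_WD+VC, with individual libraries at 616, 1070 and 1720 CPM in the latter.

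The pair is annotated as divergent genes on opposite strands, Abcg5 at 84658234 to 84683011 and Abcg8 at 84676302 to 84700333 of chromosome 17 (GRCm38), and their exons overlap by 82 bases through a longer Abcg8 transcript that starts inside Abcg5. Without strand information the reads of those bases cannot be assigned to 1 gene, and whether strand was used in counting is unknown here. Abcg5 gave 182 counts in all and Abcg8 8591. The share of Abcg5 in the summed counts of the pair was 0%, 0.6% and 0.901% in m12_CD and 3.5%, 3.79% and 7.71% in m12_WD. It was 1.76%, 6.67% and 2.07% in m12_CD+VC and 4.6%, 1.79% and 0.631% in m12_WD+VC. At 12 weeks no library exceeded 2.31%. For the diet difference without VC at 12 months, 0.5 ± 0.459% against 5.0 ± 2.35%, the two-sided exact permutation p was 0.1, the smallest that 3 against 3 libraries allow (0.6 after Benjamini-Hochberg adjustment over 12 such comparisons).

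**Figure D2:**
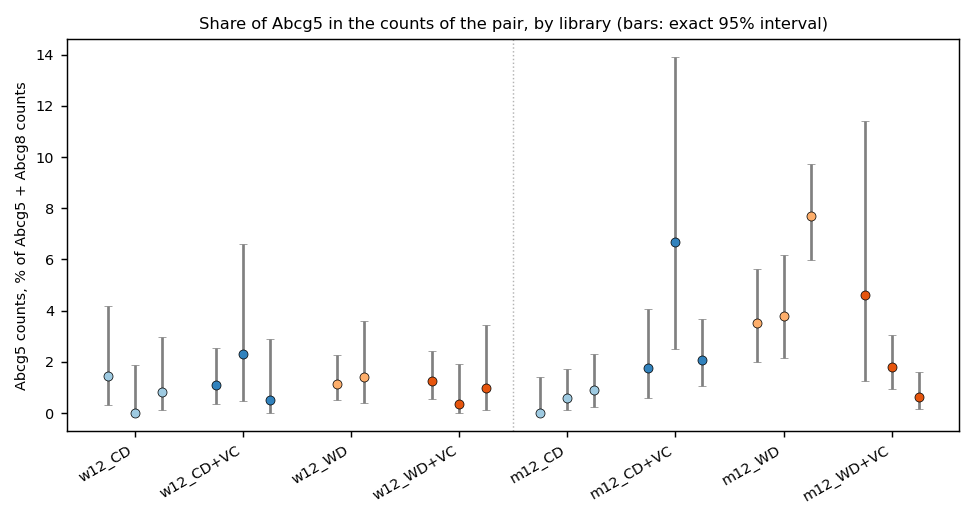
Abcg5 counts as a percentage of Abcg5 plus Abcg8 counts in each of 23 libraries, by group, with exact (Clopper-Pearson) 95% intervals that cover counting error only. The 3 m12_WD libraries sit at 3.5% to 7.71% and the 3 m12_CD libraries at 0% to 0.901%.

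Cyp8b1, the sterol 12-alpha-hydroxylase, fell with WD at 12 months without VC. Its counts were 23, 42 and 28 in m12_CD and 24, 10 and 48 in m12_WD, from larger libraries in the latter group. In CPM these were 101, 102 and 89.4 against 45.4, 22.9 and 49.5. Every WD library lay below every CD library, with means of 97.5 ± 7.05 and 39.3 ± 14.3 CPM (SD, n = 3). The log2 fold change was -1.27 (SE 0.35, adjusted p = 0.00841). With RLE size factors it was -0.9 (adjusted p = 0.0519) and with DESeq2 -0.9 (adjusted p = 0.146), so the call depends on the scaling. The median of all genes moved from 0.11 to 0.50 with RLE. Relative to that median Cyp8b1 was at -1.38 in the TMM fit and -1.40 in the RLE fit. A change of scaling shifts all genes nearly alike, so these values are close by construction and say nothing about the call.

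With VC the diet difference of Cyp8b1 at 12 months had the same sign. The m12_CD+VC libraries held 80.2, 73.8 and 61.3 CPM and the m12_WD+VC libraries 22.3, 50.9 and 27.4 CPM, again with no overlap. The change was -0.96 (SE 0.39, adjusted p = 0.228), which is not a call, in a comparison where 1.81% of all genes were called. The difference between both diet effects was 0.32 with an interval of -0.71 to 1.34 (adjusted p = 0.725). At 12 weeks the diet changes were -0.58 (SE 0.43, adjusted p = 0.946) without VC and 0.12 (SE 0.37, adjusted p = 0.979) with VC. From w12_WD+VC at 85.0 ± 9.85 CPM to m12_WD+VC at 33.5 ± 15.3 CPM the change with time was -1.18 (SE 0.38, adjusted p = 0.155), with no overlap between the libraries and 0.786% of all genes called.

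Cyp7a1, the rate-limiting enzyme of the classical pathway, was called in 0 of the 16 comparisons. It had 339 counts over all libraries, and its levels ranged from 8.36 to 79.7 CPM with a median of 41.4. The lowest group was m12_CD+VC with 13.8, 44.3 and 8.36 CPM, against 26.3, 41.4 and 67.1 CPM in m12_CD. Those groups overlapped, and the VC change on CD was -1.33 (SE 0.62, unadjusted p = 0.0393, adjusted p = 0.159), where 5.22% of all genes were called. In m12_WD it was at 62.4, 32.1 and 67.0 CPM, a diet change of 0.26 with an interval of -0.73 to 1.25. That interval overlaps the one of Cyp8b1 in the same comparison, -1.96 to -0.58, and a difference between both genes was not tested.

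Cyp27a1, which works in both pathways, was called in 0 comparisons and had the smallest ratio of highest to lowest group mean among the 9 genes, 1.99. Its group means ran from 56.3 ± 37.1 CPM in w12_CD to 112.0 ± 24.4 CPM in m12_CD+VC. The 3 m12_CD+VC libraries held 102, 140 and 94.7 CPM and were all above the m12_CD libraries at 39.4, 87.8 and 51.1 CPM. That VC change on CD was 0.84 (SE 0.42, adjusted p = 0.181). Diet without VC at 12 months gave 0.13 with an interval of -0.67 to 0.93.

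Abcb11, the bile salt export pump, was called in 0 comparisons and varied widely within the 12-week CD groups. In w12_CD its 3 libraries held 170, 73.4 and 19.8 CPM, and in w12_CD+VC 137, 63.0 and 13.3 CPM. Both 12-week WD groups were lower by mean, with 36.3 and 17 CPM in w12_WD and 26.8, 21.0 and 6.82 CPM in w12_WD+VC. The diet changes at 12 weeks were -1.53 (SE 0.73, adjusted p = 0.854) without VC and -1.83 (SE 0.66, adjusted p = 0.281) with VC, and 0.524% of all genes were called in the latter comparison. At 12 months the diet change without VC was 1.03 (SE 0.58, adjusted p = 0.196), from 31.8 ± 16.4 to 68.5 ± 25.3 CPM. The difference between the diet effects at both times was 2.56 (SE 0.93, adjusted p = 0.0895), not a call, and became one without the third w12_CD library (2.93, adjusted p = 0.0318). Exons of Abcb11 overlap those of Gm13613 by 136 bases and of Gm13614 by 19 bases on the other strand, and the table has no entry under either symbol.

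Slc10a1, the uptake carrier, was called in 0 comparisons, and its mean was lowest in the WD groups with VC. At 12 months the m12_WD+VC libraries held 74.3, 37.4 and 62.9 CPM and the m12_CD+VC libraries 77.4, 221 and 125 CPM. The groups did not overlap by a narrow margin, and the change of -1.29 (SE 0.43, unadjusted p = 0.00485) had an adjusted p of 0.121. At 12 weeks the same contrast gave -0.98 (SE 0.45, adjusted p = 0.44), with 37.9, 54.5 and 61.3 CPM against 139, 86.6 and 59.9 CPM. Without VC at 12 months the diet change was -0.12 with an interval of -0.89 to 0.65. The difference between the 2 diet effects at 12 months was -1.17 (SE 0.58, adjusted p = 0.173).

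Nr1h4, the bile acid receptor, had 240 counts in all and was called in 0 comparisons. Its levels were 13.1, 26.8 and 28.7 CPM in m12_CD and 45.4, 39.0 and 30.9 CPM in m12_WD, a change of 0.68 (SE 0.52, adjusted p = 0.354) with no overlap between the libraries. From w12_WD, where it held 20.7 and 0 CPM, to m12_WD the change was 1.39 (SE 0.68, adjusted p = 0.169). Its other 12-month groups were at 40.4 ± 18.2 CPM with VC on CD and 36.6 ± 1.98 CPM with VC on WD.

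Nr0b2, the repressor that FXR induces, was too thin to follow. The highest group was m12_CD with 35.0, 14.6 and 9.58 CPM, from 17 counts, and the lowest was m12_CD+VC with 16.6, 0 and 0 CPM, from 6 counts. Tested without the expression filter, its largest change by p was the VC change on CD at 12 months, -1.57 (SE 0.89, adjusted p = 0.502). For diet without VC at 12 months that fit gave -1.27 (SE 0.79, adjusted p = 0.398), so a change by the size of that of Cyp8b1 could not be told from 0 at this depth.

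In the remaining 12 comparisons, 0 of the 8 genes were called by edgeR. Of all genes, 0.572% were called there for VC on WD at 12 months, 0.0238% for the diet by VC interaction at 12 weeks and 0.143% for VC by time on CD, and 0% for VC at 12 weeks on either diet. At an unadjusted p under 0.05 there were 2 for diet with VC at 12 months, 2 for VC on CD and 0 for VC on WD at 12 months. At 12 weeks there were 3 for diet without VC, 2 with VC, and 0 in each of the VC comparisons and the interaction. Over time, there were 2 on CD, 0 on CD with VC, 1 on WD with VC and 0 for VC by time. The share of all genes at that unadjusted threshold is not given here, so these counts cannot be read against it. DESeq2 called 0 of them in these 12 comparisons as well.

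**Figure D3:**
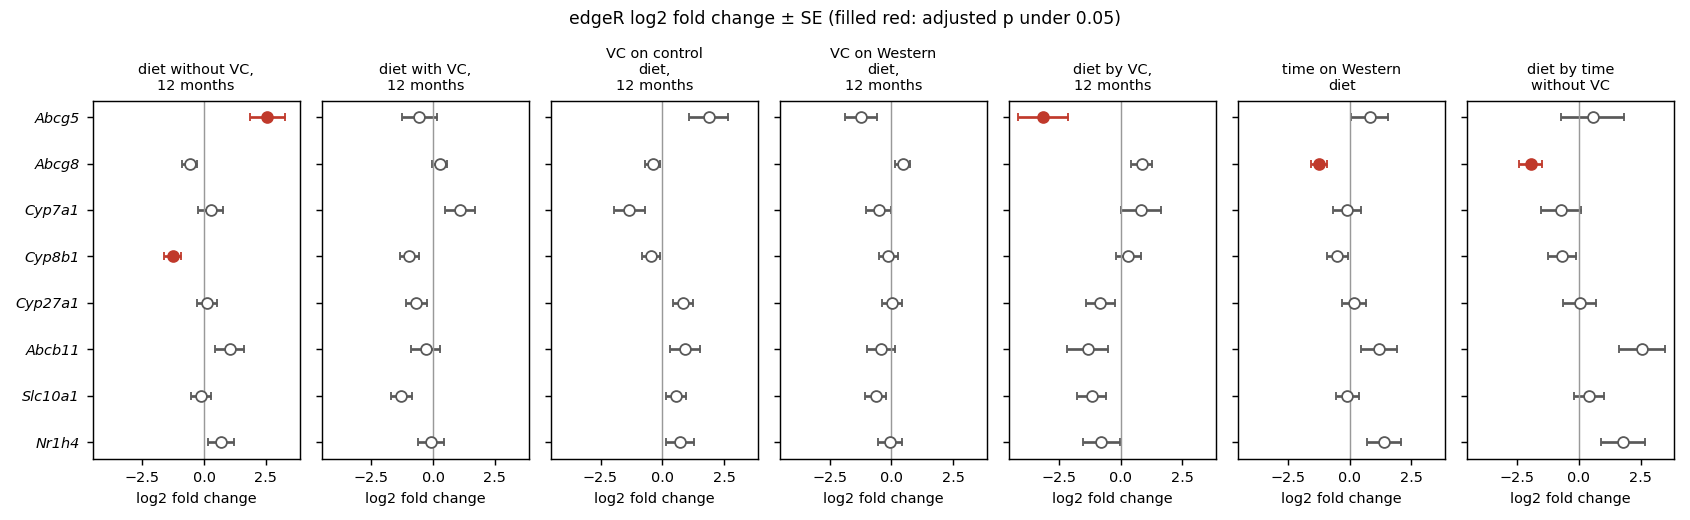
edgeR log2 fold change (horizontal axis, points) with its SE (bars) for the 8 tested genes in 7 comparisons. Filled red points have an adjusted p under 0.05: Abcg5 at 2.56 and -3.12, Cyp8b1 at -1.27, and Abcg8 at -1.23 and -1.94.

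The markers of cell types moved with diet without VC at 12 months, the contrast in which Abcg5 rose. There, 4 of 12 hepatocyte markers rose with WD and 0 fell (median 0.75), where 13.4% of all genes were called as higher. Their summed level was 6790 to 15200 CPM in m12_CD and 15400 to 28800 CPM in m12_WD. With VC it was 23500 to 40500 CPM on CD and 10800 to 15500 CPM on WD. Of 11 macrophage markers 8 were tested and 5 rose with WD without VC, from a summed level of 96.4 to 166 CPM to 544 to 738 CPM. The 9 bile duct markers summed to 4.88 to 16.0 CPM in m12_CD and 100 to 211 CPM in m12_WD, with 1 tested, and the 7 stellate markers to 0 to 29.3 and 141 to 154 CPM, with 2 tested, both higher. With VC, unlike Abcg5, the macrophage sum was still higher on WD (319 to 531 CPM) than on CD (214 to 301 CPM). So was the bile duct sum, at 59.4 to 112 against 13.9 to 38.7 CPM. The stellate sums overlapped, at 73.8 to 118 and 80.8 to 111 CPM. The part of these markers in the changes of Abcg5 and Cyp8b1 was not tested. In bulk tissue, fewer cells of a type and less RNA per cell cannot be told apart.

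The share of counts on entries whose exons overlap no gene on the other strand also moved with that contrast. Without VC at 12 months it was 15.4 ± 3.54% on CD and 25.6 ± 3.86% on WD, and with VC 26.3 ± 4.6% on CD and 20.4 ± 2.39% on WD (SD, n = 3). It was 14.9% to 16.9% by mean in the 12-week groups. For diet without VC at 12 months the median log2 fold change was 0.48 over 1990 tested genes without such an overlap and -0.16 over 2054 with one. Cyp8b1 is among those without, and Abcg5 and Abcg8 among those with, by the 82 bases they share. The part of this shift in the results was not tested.

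Around the 9 genes, a list of 59 further genes of bile acid synthesis, transport, control and sterol handling was followed, of which 36 were tested. For diet without VC at 12 months, 10 rose and 2 fell, with a median of 0.70 against 0.11 over all genes, of which 24.5% were called (13.4% higher and 11.1% lower). Scarb1, the receptor that takes up cholesterol from high-density lipoprotein, rose from 8.97 ± 4.25 to 74.9 ± 29.1 CPM (2.96, SE 0.52, adjusted p = 0.000148). Akr1c6 of the sterol-modifying aldo-keto reductases rose by 2.12 (SE 0.51, adjusted p = 0.0028), and Acox2, the peroxisomal oxidase of bile acid side chains, by 1.87 (SE 0.46, adjusted p = 0.00332). Abcc3, a basolateral exporter of conjugates, rose from 22.4 ± 9.28 to 95.6 ± 40.5 CPM (1.99, adjusted p = 0.00097). Abcb4, which moves phospholipid into bile, rose by 1.32 (adjusted p = 0.0104), a call lost without m12_CD 3 (0.0853), without m12_WD 3 (0.0527) and without the expression filter (0.0967). Of the 13 tested synthesis genes 4 rose and 0 fell, whereas the synthesis enzyme Cyp8b1 fell.

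**Figure D4:**
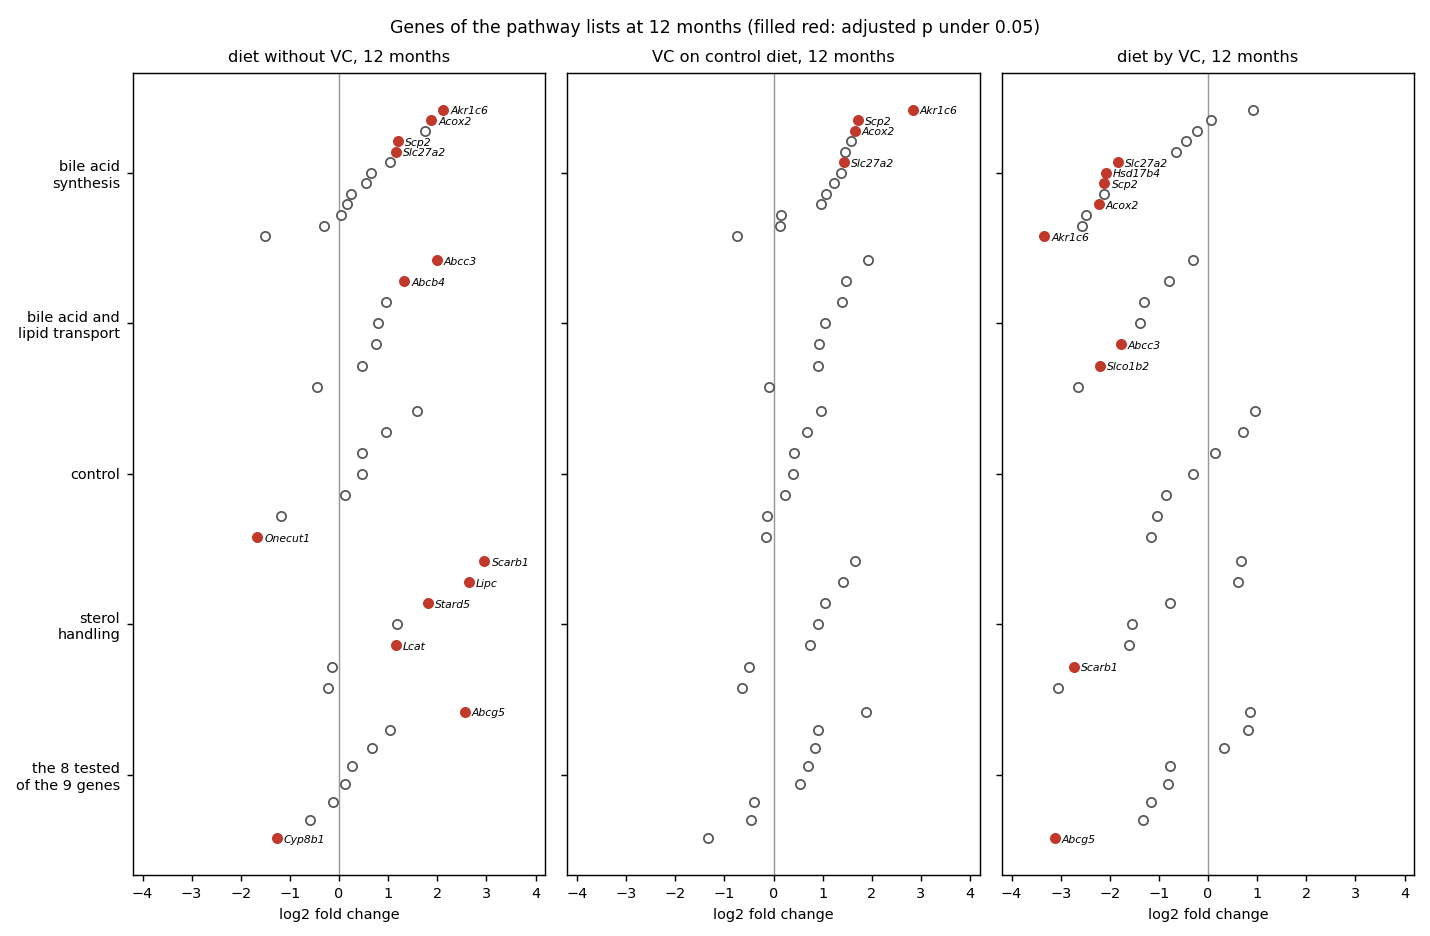
edgeR log2 fold change of 34 of the 36 tested genes of the pathway list, by sublist, and of the 8 tested genes of the 9, in 3 comparisons at 12 months that share the m12_CD libraries. Each point is a gene, filled red and named where its adjusted p was under 0.05. Called genes of the bile acid synthesis sublist lie above 0 for diet and for VC and below 0 in the interaction. Cyp8b1, drawn among the 8, is called below 0 for diet (-1.27).

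With VC on CD at 12 months, 4 of the 36 rose and 0 fell (median 0.96 against 0.07 over all genes), a comparison that shares the m12_CD libraries with the one before and in which 5.22% of all genes were called. All 4 are synthesis genes. Of the 12 hepatocyte markers 5 also rose and 0 fell (median 1.25), from a summed level of 6790 to 15200 CPM in m12_CD to 23500 to 40500 CPM in m12_CD+VC, and their part in these 4 changes was not tested. Akr1c6 rose from 22.2 ± 5.49 to 168.0 ± 99.3 CPM (2.83, SE 0.52, adjusted p = 0.00587) and Scp2, the peroxisomal thiolase of side-chain cleavage, from 170.0 ± 92.0 to 574.0 ± 139 CPM (1.71, adjusted p = 0.0147). Slc27a2, a fatty and bile acid CoA ligase, rose by 1.43 (adjusted p = 0.0346) and Acox2 by 1.65 (adjusted p = 0.0427). Without m12_CD 1, all 4 calls were lost, with adjusted p of 0.0632 for Akr1c6, 0.131 for Scp2, 0.224 for Slc27a2 and 0.229 for Acox2. Without m12_CD+VC 2, the calls of Scp2 (0.0922), Slc27a2 (0.206) and Acox2 (0.174) were lost, without m12_CD+VC 3 those of Slc27a2 (0.0614) and Acox2 (0.0573), without m12_CD 3 that of Slc27a2 (0.0623), and without m12_CD 2 (0.0943) or m12_CD+VC 1 (0.102) that of Acox2. The calls of Slc27a2 and Acox2 were also lost without the expression filter (0.0867 and 0.245) and in the compared groups alone (0.0783 and 0.0947). For diet with VC and for VC on WD at 12 months, 0 of the 36 were called by edgeR or DESeq2. At an unadjusted p under 0.05 there were 7 and 4, again without the share of all genes at that threshold.

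In the diet by VC interaction at 12 months, 8 of the 36 were called lower and 1 higher, with a median of -1.24 against -0.04 over all genes, of which 9.81% were called. Of the 12 hepatocyte markers 7 were called lower and 0 higher (median -1.79), and their part in these values was not tested. Akr1c6 had -3.34 (SE 0.68, adjusted p = 0.00549), with 26.3, 24.4 and 16.0 CPM in m12_CD and, with VC, 94.0, 281 and 128. On WD it was at 79.4, 131 and 83.5 CPM without VC and at 66.8, 65.9 and 71.1 CPM with VC. Its call held without any 1 library, with adjusted p up to 0.0242. Scarb1 had -2.74 (adjusted p = 0.0176), Scp2 -2.11 (0.0156), Acox2 -2.23 (0.0255), Slc27a2 -1.84 (0.0346) and Hsd17b4, the peroxisomal bifunctional enzyme, -2.08 (0.0367). Each of these 5 lost its call without m12_CD 1 (adjusted p 0.0627, 0.0613, 0.0989, 0.113 and 0.117 in that order) and without m12_WD+VC 3 (0.0689, 0.0701, 0.0805, 0.103 and 0.12). Without m12_CD+VC 2, Scp2, Acox2, Slc27a2 and Hsd17b4 lost theirs (0.0555, 0.0793, 0.121 and 0.0972), as they did without m12_WD 2 (0.0594, 0.0504, 0.08 and 0.071). Without m12_CD+VC 3, Scarb1 (0.053), Slc27a2 (0.0527) and Hsd17b4 (0.0974) did, without m12_WD+VC 1 Acox2 (0.0541), Slc27a2 (0.0642) and Hsd17b4 (0.0709), without m12_WD 1 Slc27a2 (0.0752) and Hsd17b4 (0.0572), without m12_CD 2 Acox2 (0.0541) and without m12_WD+VC 2 Slc27a2 (0.0512). Without the expression filter Scarb1 (0.105), Acox2 (0.169), Slc27a2 (0.0743) and Hsd17b4 (0.111) lost their calls, and in the compared groups alone Slc27a2 (0.052) and Hsd17b4 (0.0558). Abcg5 showed the same sign in this interaction as these 6 genes, as given above.

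With time on WD without VC, 3 of the 36 rose and 2 fell, where 14.6% of all genes were called and 6 of the 12 hepatocyte markers rose (median 1.13), whose part was not tested. Onecut1, a hepatocyte nuclear factor, fell from 73.4 ± 31.7 CPM (n = 2) to 8.67 ± 0.962 CPM (-3.07, SE 0.57, adjusted p = 0.000425). Abcb4 (1.5, adjusted p = 0.0254), Lcat (1.66, 0.0294) and Scarb1 (1.65, 0.0422) rose. Without w12_WD 1, these 4 calls were lost (0.0874, 0.15, 0.0971 and 0.259 in that order), and without w12_WD 2 those of Abcb4, Lcat and Scarb1 (0.157, 0.215 and 0.161). Lcat and Scarb1 also lost theirs without w12_WD 3 (0.0512 and 0.0738) and without m12_WD 2 (0.0891 and 0.0984), Lcat without m12_WD 1 (0.105), Scarb1 without m12_WD 3 (0.138), and Abcb4 without m12_WD 2 (0.0611) or m12_WD 3 (0.0869). Without the expression filter and with DESeq2 the calls of Abcb4 (0.229 and 0.0522), Lcat (0.158 and 0.0657) and Scarb1 (0.291 and 0.11) were lost, and with the replicate block that of Scarb1 (0.0573). In the diet by time interaction 2 of the 36 were called higher and 0 lower, where 6.67% of all genes were called and 5 of the 12 hepatocyte markers were higher. Scarb1 had 3.25 (SE 0.81, adjusted p = 0.0145) and Slco1b2, a hepatocyte uptake carrier, 2.65 (SE 0.81, adjusted p = 0.0403). Scarb1 lost that call without w12_CD 2 (0.059), w12_WD 1 (0.0703) or w12_WD 2 (0.0724), and Slco1b2 in 7 of 12 fits that left out 1 library, namely w12_CD 1 or 2, w12_WD 2 or 3, m12_CD 1, or m12_WD 1 or 2, with adjusted p up to 0.213. Scarb1 also lost it without the expression filter (0.0676), and Slco1b2 in the compared groups alone (0.0544) and with DESeq2 (0.0601).

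On CD, 1 gene of the list fell with time and on CD with VC 3 rose and 1 fell, where 1.62% and 6.38% of all genes were called. Sult2a8, a bile acid sulfotransferase of mouse liver, fell from 119.0 ± 53.8 to 17.3 ± 13.7 CPM (-2.62, adjusted p = 0.0499). With VC, Hsd17b4 rose by 1.55 (adjusted p = 0.048) and Abcb4 by 1.38 (0.048), and Lpcat3, a phospholipid remodelling enzyme, fell by 0.87 on the log2 scale (0.0491). These 4 calls were lost in at least 5 of 6 fits that left out 1 library, with adjusted p up to 0.16 for Sult2a8, 0.189 for Hsd17b4, and 0.197 for both Abcb4 and Lpcat3. The calls that held were those of Sult2a8 without w12_CD 3 and Hsd17b4 without m12_CD+VC 1. With RLE size factors and DESeq2 that of Sult2a8 was lost too (0.0744 and 0.0725). Those of Hsd17b4, Abcb4 and Lpcat3 were lost without the expression filter (0.148, 0.324 and 0.14), with the replicate block (0.0549, 0.0513 and 0.0563), in the compared groups alone (0.0582, 0.0672 and 0.057) and with DESeq2 (0.0644, 0.058 and 0.145), and that of Lpcat3 also with RLE size factors (0.0929).

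Across the 23 libraries, the tested gene whose log2 CPM was most like that of each of the 8 was taken by Pearson correlation, a description over libraries that share depth and group. Predicted (Gm), Rik and clone symbols and the 9 genes themselves were left out, which left 3851 of the tested genes as candidates. Nr1h4 paired with Idh3b (r = 0.853), Cyp27a1 with Qsox1 (0.845), Cyp8b1 with Tom1l2 (0.808), Abcb11 with Amdhd1 (0.802) and Abcg5 with Ces1d (0.785). Abcg8 paired with Gab1 (0.745), Slc10a1 with Serpina1d (0.728) and Cyp7a1 with Fam89a (0.644). Each is the highest of those 3851 correlations, and Gab1, Tom1l2, Qsox1 and Idh3b overlap a gene on the other strand. Among the 8 themselves the correlations were lower: the highest was 0.492, between Abcb11 and Nr1h4, and the lowest -0.516, between Abcg5 and Cyp8b1.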

How the data were processed

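Liver RNA (Trizol, DNase) lost its ribosomal fraction to Ribo-Zero and became TruSeq RNA libraries that ran on a HiSeq2500, per the labels' protocols. Trimmomatic 0.38, HISAT2 2.1.0, HTSeq 0.11.2 and mm10 were used, per the submitters' processing notes, with neither annotation nor strand setting stated. The deposited table holds raw counts per gene. The deposited per-sample files hold log2 values, which were used only to tie columns to samples. Groups came from the labels.

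After edgeR's expression filter and TMM scaling, the counts were fitted in 1 quasi-likelihood model of 8 groups and 24 libraries (edgeR 4.0.16, R 4.3.3, common biological coefficient of variation 0.317). Each of 16 comparisons was adjusted over 4198 genes (Benjamini-Hochberg, threshold 0.05), and standard errors are the log2 fold change over the root of F. The test was checked on simulated counts. Gene models are from GENCODE M21 (GRCm38) and sequences from RefSeq. Library totals were 126160 to 962493 counts in 23 libraries and 607 in 1, and exact 95% intervals cover counting error only. Log2 CPM for correlations used a prior count of 2.

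The 9 genes, the pathway and marker lists and the tests were chosen with earlier results of these data known. Named genes were the 9, entries overlapping them on the other strand, up to 6 called pathway genes per comparison by adjusted p, and the most correlated gene for each tested one (predicted, Rik and clone symbols left out). Counts over the pathway list hold all its tested genes, of which 2 are not reported here one by one. Replicate numbers showed no general pairing of samples over all genes. The alternatives tried were DESeq2 1.42.0, RLE size factors, a fit without the filter, a fit of the compared groups only, a replicate block, and each library left out.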

Additional observations from a re-analysis of the deposited data

Results flagged for a closer look

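Of the 9 genes, Abcg5 and Abcg8 had an effect that differed between groups by the test of the difference itself, edgeR's interaction term. For Abcg5 the diet effect at 12 months differed between exposures by -3.12 on the log2 scale (adjusted p = 0.0452). That call was lost in 10 of 12 fits that left out 1 library, and with DESeq2 (0.0647). For Abcg8 the diet effect without VC differed between times by -1.94 (adjusted p = 0.0108), a call lost without the second w12_WD library (0.101).

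Among the named genes of the pathway list, the diet effect at 12 months differed between exposures by -3.34 for Akr1c6 (adjusted p = 0.00549), -2.11 for Scp2 (0.0156), -2.74 for Scarb1 (0.0176), -2.23 for Acox2 (0.0255), -1.84 for Slc27a2 (0.0346) and -2.08 for Hsd17b4 (0.0367). The diet effect without VC differed between times by 3.25 for Scarb1 (0.0145) and 2.65 for Slco1b2 (0.0403). Of these calls, only that of Akr1c6 held in every fit with a library left out.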

How the results depend on the processing

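Of the 16 comparisons, 12 had 0 of the 8 tested genes called. In diet without VC at 12 months the count of called genes was 2, and 1 with RLE size factors and with DESeq2, since Cyp8b1 was lost, and 1 to 2 with a library left out. In the diet by VC interaction at 12 months it was 1, and 0 without the expression filter, with the replicate block, in the compared groups alone and with DESeq2, and 0 to 1 with a library left out. For time on WD it was 1, and 0 to 1 with a library left out. For diet by time without VC it was 1, 2 with the replicate block and 0 to 2 with a library left out. Over all genes, replicate numbers showed no general pairing of the samples. Deviations of 77 same-numbered pairs correlated by -0.31 to 0.236, with a median of 0.007 and 16 over 0.1. Other pairs had a median of 0.007. Single genes could still follow the number: Abcb11 fell from the first to the third library in w12_CD, w12_CD+VC and w12_WD+VC. With the block, Abcb11 was called in diet by time (2.79, adjusted p = 0.0411) and Abcg5 was not in the diet by VC interaction (adjusted p = 0.0524). Leaving out m12_CD+VC 3 called Abcg8 in that interaction (1.38, adjusted p = 0.0445) while Abcg5 was lost.

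For the 123 uncalled results of the 8 genes, 3 of 1496 alternatives gave a call, 96 gave the other sign, and 9 of those moved by over 1 SE. Over the fits with a library left out, those results ranged as follows. Abcg8 ranged from -0.15 (without m12_WD+VC 3) to 0.72 for diet with VC at 12 months and from -0.48 (m12_CD+VC 3) to 0.21 for time on CD with VC. Abcb11 ranged from -1.42 to 0.66 (w12_CD 1) for VC on CD, -0.96 to 0.3 (w12_WD 1) for VC on WD and -1.19 to 0.86 (w12_CD+VC 1) for diet by VC, all at 12 weeks, and from -0.77 to 0.89 (w12_CD+VC 1) for time on CD with VC. Cyp27a1 ranged from -0.14 (w12_WD+VC 1) to 0.62 for time on WD with VC, -0.62 (w12_CD 1) to 0.37 for diet by time and -0.13 (w12_CD 1) to 0.92 for VC by time. A sign change under 1 SE was not counted as a reversal.

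Counts over all genes moved too. Those for diet without VC at 12 months were 1028, and 610 in the compared groups alone. For the diet by VC interaction they were 412, 232 without the filter and 239 with DESeq2, for VC on CD 219, 442 with RLE, 103 without the filter and 73 in the compared groups alone, for time on WD 613 and 347 with DESeq2, and for diet by time 280, 186 in the compared groups alone and 149 with DESeq2. In the pathway list, RLE gave 15 higher and 1 lower in place of 10 and 2 for diet without VC, 11 in place of 4 higher for VC on CD, and 10 in place of 8 lower in the interaction, and DESeq2 gave 0 in place of 3 higher for time on WD and for time on CD with VC. Without w12_WD 3, 1 rose and 2 fell for time on WD. The cause was not tested. Depth limits all of this: Abcg5 and Nr0b2 had fewer than 10 counts in most libraries.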

Other observations

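Ackr2, a scavenger receptor for inflammatory chemokines, ends 3281 bases from the end of Cyp8b1 on the other strand, with no exon shared, and was looked at after its values were seen. In m12_WD, with Cyp8b1 at 39.3 ± 14.3 CPM, Ackr2 had 0 counts in all 3 libraries, which allows up to 5.55, 7.37 and 3.12 CPM. In m12_CD it had 10, 23 and 11 counts (43.8, 56.1 and 35.1 CPM). In m12_WD+VC, where Cyp8b1 was at 33.5 ± 15.3 CPM, Ackr2 was detected, with 1, 3 and 6 counts. In w12_WD it had 21 and 8 counts in the larger libraries. In m12_CD+VC it had 26, 5 and 3 counts, where Cyp8b1 had 29, 10 and 22. In w12_WD+VC Ackr2 had 6, 4 and 10 counts, where Cyp8b1 had 34, 20 and 14. A shared change of both genes was not tested.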
